A study of Homo sapiens with 18 samples.

Results

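The aryl hydrocarbon receptor (AHR) pathway was followed through 6 genes in MDA-MB-231 cells, an established line of breast carcinoma, after knockdown of fibrillarin. The genes were CYP1B1, CYP1A1, AHR, ARNT, AHRR and TIPARP, which are 6 of the 17017 gene symbols in the deposited table and were taken by their symbols. CYP1B1 was chosen by its measured RNA rise against the control, one of the highest shared by both hairpin treatments, so its values are given as a description with no test. The question was whether that rise was shared by the rest of the receptor pathway.

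AHR is a ligand-activated transcription factor of the bHLH-PAS family that is held in the cytoplasm by a chaperone complex. On binding a ligand it enters the nucleus, pairs with ARNT and binds DNA at sites with the core letters GCGTG. CYP1A1 and CYP1B1, cytochrome P450 enzymes that oxidise polycyclic aromatic compounds and estrogens, are among its best known targets, and AHRR and TIPARP are induced targets that in turn restrain the receptor.

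Cells received lentiviral particles with a pLKO.1 short hairpin RNA, either a scramble sequence (SC, read here as the control) or a sequence against the mRNA of fibrillarin (SH2 and SH3), and all groups went through puromycin selection. Fibrillarin (FBL) is the nucleolar enzyme that adds 2'-O-methyl groups to ribosomal RNA. From each treatment came 3 libraries of input cytoplasmic RNA (IN, called RNA here) and 3 of ribosome-protected footprints (RPF), 18 in all, and cycloheximide was added before lysis in every group. The labels leave unstated which hairpin of the protocol SH2 or SH3 is. They also do not say that replicates were separate cultures, so p-values measure only the spread between these samples, which may be technical.

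Total counts were 23469830 to 27629488 in RNA libraries and 1662705 to 6098648 in footprint libraries, so footprint values rest on fewer counts. FBL RNA stood at 1.46% of the SC mean in SH2 and 0.898% in SH3. The line's markers VIM, CD44 and EGFR were present in SC RNA, while ESR1 (0 to 0.0412 CPM), PGR (0.0412 to 0.0816 CPM) and CDH1 (0.247 to 0.449 CPM) were near 0. ERBB2 was detected at 87.2 to 104 CPM and EPCAM at 4.92 to 6.22 CPM. CPM is edgeR's count scaled to the TMM-adjusted library size, within one library kind, and carries no correction for gene length, so levels are compared between samples and not between genes.

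The promoter sequences show where the receptor's core letters lie in the members that had an entry. RefSeq's promoter windows on GRCh38.p14 (250 bases before to 50 after a transcription start, 300 in all) held 8 entries for 5 of the 6 members. CYP1B1 had no entry, so nothing is said here of its promoter. In the strand of the gene, the core GCGTG, or CACGC where the core lies on the other strand, is in capitals. The 4 windows shown belong to the other xenobiotic enzyme, the repressor, the ribosyltransferase and the receptor itself. They lie at chr15:74725479-74725778 (minus strand, CYP1A1), chr5:321464-321763 (plus strand, AHRR entry 1), chr3:156674340-156674639 (plus strand, TIPARP entry 1) and chr7:17298402-17298701 (plus strand, AHR).
CYP1A1: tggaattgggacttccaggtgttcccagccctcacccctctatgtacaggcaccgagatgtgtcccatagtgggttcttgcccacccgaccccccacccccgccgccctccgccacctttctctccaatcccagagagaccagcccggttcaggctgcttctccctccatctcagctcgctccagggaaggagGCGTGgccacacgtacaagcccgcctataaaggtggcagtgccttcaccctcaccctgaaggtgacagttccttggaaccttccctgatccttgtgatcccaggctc
AHRR: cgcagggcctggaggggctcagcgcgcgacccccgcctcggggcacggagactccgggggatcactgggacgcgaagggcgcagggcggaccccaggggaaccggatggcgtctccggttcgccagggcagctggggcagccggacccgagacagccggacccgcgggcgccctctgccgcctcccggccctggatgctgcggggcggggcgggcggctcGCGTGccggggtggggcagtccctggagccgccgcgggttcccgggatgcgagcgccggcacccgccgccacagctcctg
TIPARP: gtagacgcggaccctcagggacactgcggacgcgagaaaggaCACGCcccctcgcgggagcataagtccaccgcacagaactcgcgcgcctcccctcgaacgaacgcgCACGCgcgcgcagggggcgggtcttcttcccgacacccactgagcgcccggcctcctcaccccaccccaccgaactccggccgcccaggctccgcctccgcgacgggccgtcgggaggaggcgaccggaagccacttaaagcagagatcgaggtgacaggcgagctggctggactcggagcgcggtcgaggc
AHR: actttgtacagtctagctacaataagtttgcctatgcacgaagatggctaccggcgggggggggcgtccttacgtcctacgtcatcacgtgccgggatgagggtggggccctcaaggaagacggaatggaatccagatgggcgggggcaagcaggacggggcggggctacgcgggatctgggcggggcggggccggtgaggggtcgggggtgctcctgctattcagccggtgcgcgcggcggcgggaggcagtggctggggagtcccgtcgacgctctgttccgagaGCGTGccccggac
The CYP1A1 window held 1 core, 57 bases before the start, and the AHRR window 1 core, 30 bases before the start. The TIPARP window held 2 cores, both on the other strand, and the AHR window 1 core, 37 bases after the start. A second AHRR entry held 2 cores, while the ARNT window and the other 2 TIPARP entries held 0. Of 35116 RefSeq promoter windows of the same length, 36.5% held at least 1 core on either strand and 12.7% held 2 or more, so a match in a window is common and is only a description.

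CYP1B1 had the highest fitted change of the 6 genes in RNA, and in footprints among those with an estimate. Its place in RNA follows from its choice by that rise, so the order and the intervals below are not a test. Its RNA stood at 32.98, 13.15 and 15.46 CPM in SC replicates 1, 2 and 3, at 183.1, 118.0 and 144.2 CPM in SH2 and at 143.2, 140.2 and 111.5 CPM in SH3. Every hairpin library lay above every SC library, and SC replicate 1 stood above the other SC libraries. The means were 20.5 ± 10.8, 148 ± 32.8 and 132 ± 17.5 CPM (SD, n = 3 each), log2 changes of 2.85 (95% interval 2.26 to 3.45) in SH2 and 2.68 (2.09 to 3.27) in SH3. These are 7.23-fold and 6.41-fold. Both hairpin treatments were compared with the same SC libraries. In bulk libraries such as these, a change in the number of expressing cells and a change in RNA per cell cannot be told apart. Without SC replicate 1, the changes were 3.36 in SH2 and 3.18 in SH3. In the direct comparison, SH2 minus SH3 was 0.17 (interval -0.37 to 0.71).

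Footprints of CYP1B1 moved with its RNA. They stood at 15.91, 40.44 and 22.72 CPM in SC replicates 1, 2 and 3, at 143.7, 268.5 and 180.3 CPM in SH2 and at 177.4, 206.8 and 183.3 CPM in SH3, from 96 to 128 counts per SC library. Groups again did not overlap, but within SC and SH2 replicate 1 was now the lowest library and replicate 2 the highest, the reverse of their order in RNA. This reversal is not particular to CYP1B1. Across 10335 genes, RNA 1 deviated with footprints 2 in SC (r 0.57) and in SH2 (r 0.56), and RNA 2 with footprints 1 (r 0.46 and 0.49). The log2 changes in footprints were 2.99 (95% interval 2.40 to 3.58) in SH2 and 2.92 (2.33 to 3.51) in SH3.

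**Figure D1:**
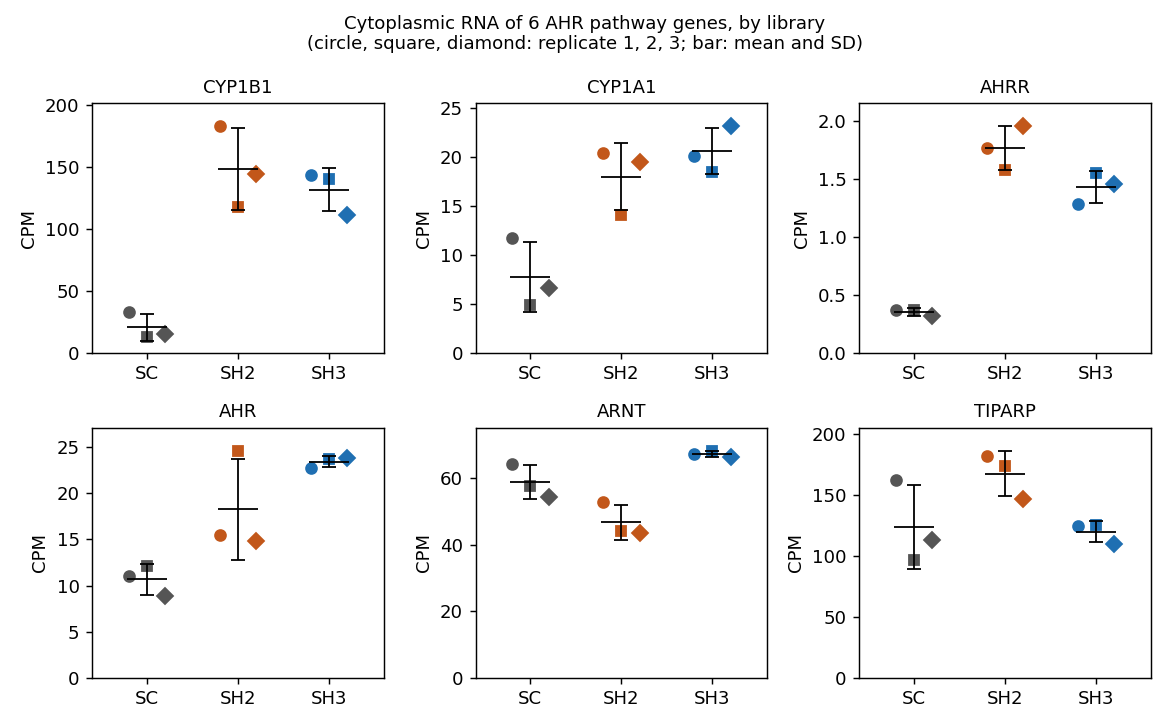
RNA level in CPM (vertical axis, linear from 0, own scale in each panel) of the 6 genes in each SC, SH2 and SH3 library; symbols mark the replicate number and bars give the mean and SD of 3 libraries. CYP1B1, CYP1A1, AHRR and AHR lay higher in every hairpin library than in any SC library. ARNT lay lower than SC in SH2 and higher in SH3, and TIPARP overlapped SC in both treatments. The share of all genes with such separation was not counted.

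CYP1A1, the enzyme most often used as a readout of AHR activity, rose in both treatments. Its RNA was at 11.76, 4.86 and 6.57 CPM in SC, 20.36, 14.04 and 19.49 CPM in SH2 and 20.08, 18.50 and 23.14 CPM in SH3. As for CYP1B1, SC replicate 1 was the highest SC library, and no SC library reached a hairpin library. In edgeR's quasi-likelihood test, with p adjusted over all genes tested here and throughout, the log2 change was 1.22 (SE 0.25, adjusted p 0.000715) in SH2 and 1.41 (SE 0.25, adjusted p 0.000309) in SH3, with no call between the hairpins (-0.20, interval -0.70 to 0.31, adjusted p 0.536). Both estimates were below those of CYP1B1, which was chosen by its RNA rise, and the difference was not tested.

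Footprints of CYP1A1 rose as well. The SC libraries held 2.60, 7.16 and 4.97 CPM, from 16 to 28 counts each, against 9.26, 25.41 and 18.78 CPM in SH2 and 18.15, 15.75 and 16.48 CPM in SH3. No hairpin library fell to the SC range, and SH2 replicate 1, with 25 counts, stood below the other SH2 libraries. The log2 changes were 2.01 (SE 0.36, adjusted p 0.000358) in SH2 and 1.89 (SE 0.38, adjusted p 0.00117) in SH3.

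AHRR, a repressor related in sequence to AHR that competes with it for ARNT, rose in RNA from very low levels. It had 9, 9 and 8 counts in the SC libraries, 45, 42 and 55 in SH2 and 32, 37 and 38 in SH3. In CPM these were 0.367, 0.371 and 0.315, then 1.765, 1.580 and 1.956, then 1.280, 1.552 and 1.456. The log2 changes were 2.32 (SE 0.27, adjusted p 7.17e-06) in SH2 and 2.01 (SE 0.28, adjusted p 5.32e-05) in SH3. SH2 minus SH3 was 0.31 (interval -0.17 to 0.79, adjusted p 0.295). AHRR passed the filter on low counts only through the hairpin groups, where it was high, and it was also called when no filter was used. Its footprints numbered at most 3 in any library, so no footprint change is given. RefSeq lists a readthrough transcript, PDCD6-AHRR, over the same locus, and how reads shared between overlapping genes were counted is not given in the sources used here.

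The receptor's own RNA was higher in both treatments. AHR stood at 11.06, 12.16 and 8.81 CPM in SC, at 15.45, 24.61 and 14.83 CPM in SH2 and at 22.72, 23.74 and 23.83 CPM in SH3. The groups did not overlap with SC, SH3 libraries lay close together, and SH2 replicate 2 stood above the other SH2 libraries. The log2 change was 0.78 (SE 0.18, adjusted p 0.00207) in SH2 and 1.13 (SE 0.18, adjusted p 0.000159) in SH3, and SH2 against SH3 was not called (-0.36, interval -0.74 to 0.02, adjusted p 0.123).

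AHR footprints rose by 1.43 on the log2 scale in SH2 (SE 0.29, adjusted p 0.00106) and by 0.94 in SH3 (SE 0.32, adjusted p 0.0304). They were 5.52, 2.95 and 5.15 CPM in SC, 15.55, 14.69 and 8.74 CPM in SH2 and 7.02, 9.59 and 10.52 CPM in SH3, without overlap between SC and either hairpin. Counts were low, from 7 to 34 per SC library and from 12 to 30 per SH3 library. The SH3 call was lost without SC replicate 2 (0.80, adjusted p 0.0610), SC replicate 3 (1.01, 0.0588), SH3 replicate 2 (0.91, 0.0925) or SH3 replicate 3 (0.83, 0.117).

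ARNT, the constitutive partner that AHR needs to bind DNA, moved differently under the hairpins. Its RNA was 64.45, 57.61 and 54.45 CPM in SC, 52.80, 44.02 and 43.56 CPM in SH2 and 67.45, 68.17 and 66.28 CPM in SH3. All SH2 libraries lay below SC and all SH3 libraries above it. The log2 change was -0.33 (SE 0.10, adjusted p 0.0127) in SH2, while in SH3 it was 0.19 and did not pass (95% interval -0.03 to 0.41, adjusted p 0.127). The difference between the hairpins passed, at -0.52 (SE 0.10, adjusted p 0.00131). Footprints of ARNT were 59.42, 83.84 and 64.98 CPM in the SC libraries, 54.06, 59.44 and 48.89 CPM under SH2 and 66.74, 61.29 and 69.06 CPM under SH3, so that both hairpin groups overlapped SC. They were not called in either treatment (-0.34 in SH2, adjusted p 0.0906, and -0.07 in SH3, adjusted p 0.776). The SH2 value was called without SC replicate 1 (-0.43, adjusted p 0.0417).

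TIPARP, an enzyme that adds ADP-ribose to proteins including AHR, was called higher in SH2 and not called in SH3, and the hairpins also differed in a direct test. Its RNA stood at 162.0, 96.05 and 112.7 CPM in SC, at 181.8, 173.6 and 146.4 CPM in SH2 and at 124.6, 124.8 and 109.4 CPM in SH3. SC replicate 1 was again the highest SC library, and the SC range overlapped both hairpin groups. The log2 change was 0.44 in SH2 (SE 0.16, adjusted p 0.0252), 0.66 there without SC replicate 1, and -0.05 in SH3 (interval -0.38 to 0.29, adjusted p 0.815), and SH2 minus SH3 was 0.48 (SE 0.16, adjusted p 0.0245). The SH2 call in RNA was lost without SC replicate 2 (0.28, adjusted p 0.113), SC replicate 3 (0.37, 0.0930), SH2 replicate 1 (0.37, 0.0782) or SH2 replicate 2 (0.40, 0.0779).

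In footprints, TIPARP was 93.51, 139.9 and 108.1 CPM in SC, 177.7, 182.3 and 151.2 CPM in SH2 and 124.7, 117.1 and 86.94 CPM in SH3. Here SH2 lay wholly above SC, and SH3 overlapped it. The log2 change was 0.59 in SH2 (SE 0.17, adjusted p 0.01) and -0.05 in SH3 (adjusted p 0.847), with 0.64 between the hairpins (SE 0.17, adjusted p 0.0133).

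**Figure D2:**
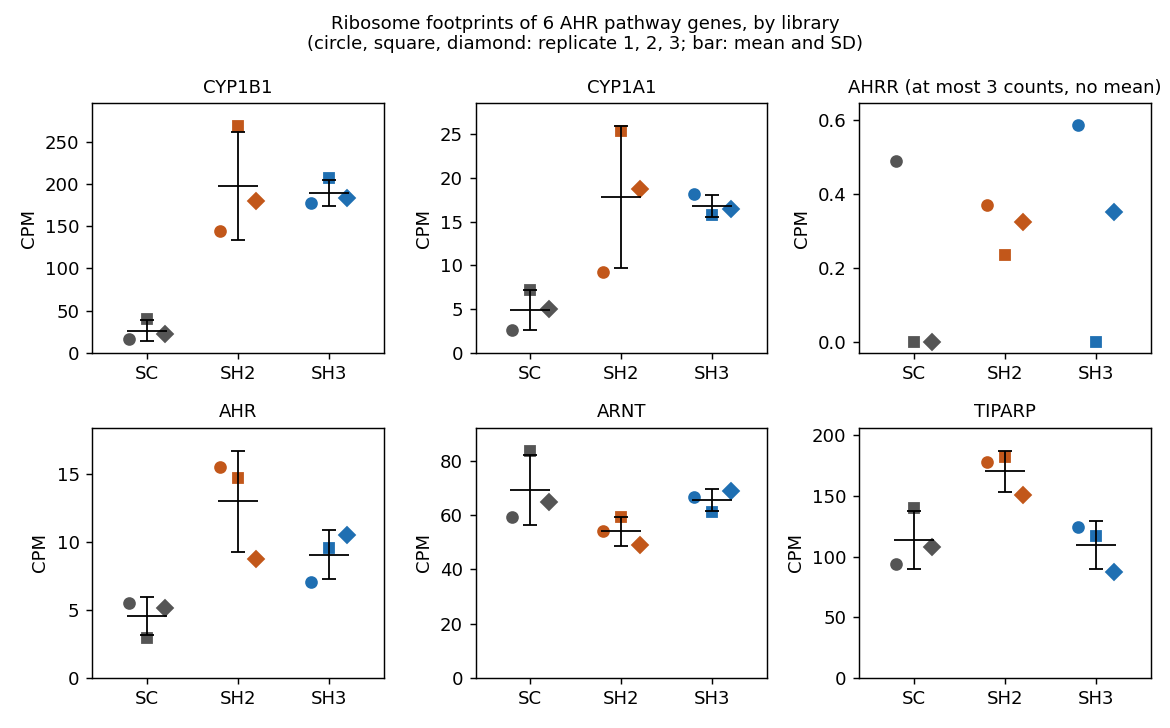
Footprint level in CPM (vertical axis, linear, own scale in each panel) of the same genes in each RPF library, drawn as for RNA. CYP1B1, CYP1A1 and AHR lay above SC in every hairpin library and TIPARP in the SH2 libraries. How many of all genes separated in this way was not counted. AHRR is shown without means because it had at most 3 counts per library.

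Set against all genes, these calls came from a background in which many genes changed. Of 12710 genes tested in RNA, 31.1% were higher and 30.4% lower in SH2, 27.8% were higher and 25.2% lower in SH3, and 39.3% differed between SH2 and SH3 in either direction. Of the 5 members other than CYP1B1, 4 were higher and 1 (ARNT) was lower in SH2 RNA, and 3 were higher in SH3. AHRR is counted among the higher in both, though it passed the filter on low counts only through the hairpin groups. In footprints, with 10345 genes tested, 21% were higher and 23.2% lower in SH2, 16.9% were higher and 19% lower in SH3, and 23.8% differed between the hairpins. Of the 4 members tested there besides CYP1B1, 3 were higher in SH2 and 2 in SH3, and none was lower. Median log2 changes over all genes lay near 0, at 0.01 in SH2 and 0.03 in SH3 for RNA. The share of all genes whose hairpin libraries lay wholly above or below SC was not counted. Such separation of a member is therefore only a description.

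**Figure D3:**
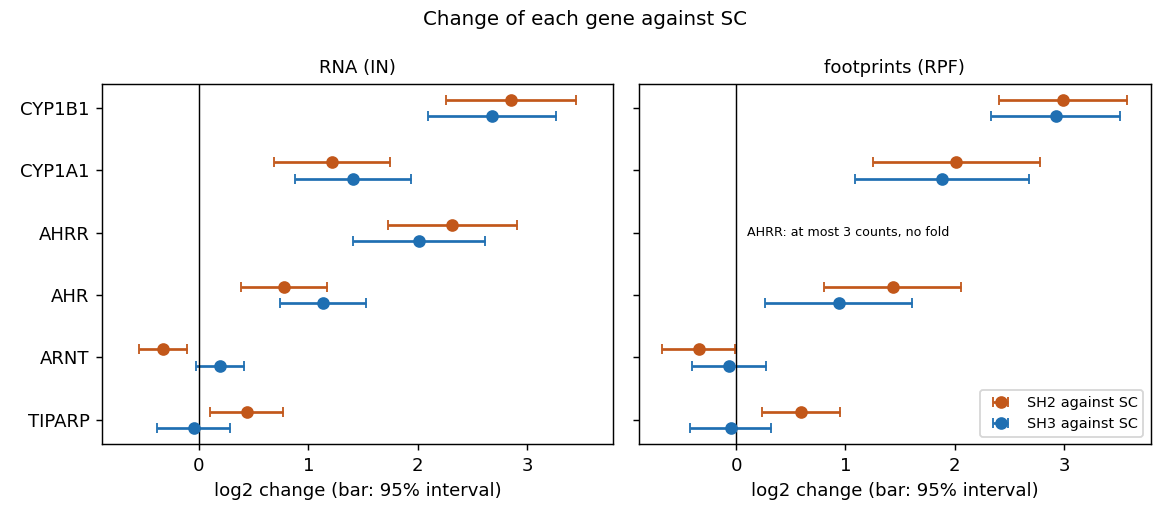
Fitted log2 change against SC (horizontal axis) of the 6 genes in RNA (left) and footprints (right) for SH2 and SH3; points are edgeR estimates from 3 libraries per group and bars their 95% intervals. The estimates of CYP1B1, a gene chosen by its RNA rise, lie between 2.68 and 2.99. In RNA it is followed by AHRR, CYP1A1 and AHR, and ARNT and TIPARP lie between -0.34 and 0.59 in both panels.

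Translational efficiency, meaning footprints per RNA of a gene, was not called for any of the 4 members tested besides CYP1B1. In both treatments 0 of them had an unadjusted p under 0.05 in edgeR, and the DESeq2 Wald test called 0 as well. The Wald test gave no adjusted p for AHR in SH3, which is counted there as not called. Over 12531 genes tested, 3.9% were called in SH2 and 0.686% in SH3. Ratios were formed from group means, because RNA and footprint libraries of one number did not deviate together in all lysates. For CYP1B1 the ratio was 1.28 in SC, 1.33 in SH2 and 1.44 in SH3, with log2 changes of 0.15 (95% interval -0.74 to 1.04) and 0.28 (-0.61 to 1.17). The sign of the CYP1B1 change turned without SC replicate 1, to -0.63 in SH2 and -0.51 in SH3, and without SH2 replicate 2, to -0.29 in SH2. These runs leave out RNA and footprints of one number as labelled. In SC and SH2, numbers 1 and 2 may be crossed between the library kinds, which was not tested.

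The other members differed in how many footprints they had per RNA. In SC, AHR had a ratio of 0.425, and 16.7% of 10335 genes had a lower one, while 31.9% lay below CYP1A1 (0.635), 52.4% below TIPARP (0.921), 67.7% below ARNT (1.18) and 72.6% below CYP1B1. The median gene had 0.888. For CYP1A1 the log2 change in efficiency was 0.82 in SH2 (SE 0.49, adjusted p 0.398) and 0.51 in SH3 (SE 0.50, adjusted p 0.739). For AHR it was 0.63 (SE 0.35, adjusted p 0.365) and -0.19 (SE 0.38, adjusted p 0.884). The 95% interval for CYP1A1 in SH2 ran from -0.19 to 1.83. With the numbers as labelled, the estimate was 0.045 without SC replicate 1 and 0.29 without SH2 replicate 2.

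Other genes reported as AHR targets were mixed. Of a list of 23, 19 were in the table and 16 were tested in RNA. This list, like those that follow, was chosen with earlier results of these data known. Its counts beside the background are therefore a description and not a test. In SH2, 10 were higher (62.5%) and 4 lower (25%), with a median log2 change of 0.85. In SH3, 6 were higher (37.5%) and 5 lower (31.2%), with a median of 0.27. The shares of all genes called higher were 31.1% (SH2) and 27.8% (SH3), and of those called lower 30.4% (SH2) and 25.2% (SH3), so the lower calls in SH2 were near the background. In footprints 13 were tested, with 8 higher and 4 lower under SH2 (median 0.81) and 4 higher and 4 lower in SH3 (median -0.03). The background there was 21% higher and 23.2% lower in SH2, and 16.9% and 19% in SH3. In translational efficiency 0 of 16 were called in either treatment by edgeR or by the DESeq2 Wald test, and at an unadjusted p under 0.05 in edgeR there were 0 in SH2 and 1 in SH3. Any target without an adjusted p in the Wald test was counted as not called. Of all genes, edgeR called 3.9% in SH2 and 0.686% in SH3, so 0 of 16 lay near that background. CYP1A2, a liver enzyme, had at most 1 count in any RNA library and was not tested, and neither were SCIN and CD36.

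Among the targets that rose in RNA in both treatments, CYP2S1, a cytochrome P450 of epithelial tissues, came first by the smaller of its changes under the 2 hairpins. Its mean went from 2.32 ± 0.284 CPM (SC) to 14.9 ± 2.6 CPM under SH2 and 11.5 ± 2.41 CPM under SH3 (SD, n = 3 each), with log2 changes of 2.69 (SE 0.20, adjusted p 1.35e-07) and 2.31 (SE 0.20, adjusted p 1.13e-06). Its footprints rose by 2.92 and 2.78. EREG, which encodes the EGF receptor ligand epiregulin, rose from 6.39 ± 2.23 CPM to 27.7 ± 9.63 CPM under SH2 and 28.9 ± 5.37 CPM under SH3, log2 changes of 2.12 and 2.18 in RNA and 3.06 and 2.89 in footprints.

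SERPINB2, an inhibitor of plasminogen activators, rose by 2.31 (SE 0.31, adjusted p 2.12e-05) in SH2 and by 1.17 (SE 0.30, adjusted p 0.00518) in SH3. Its SC mean was 16.2 ± 9.85 CPM, and without SC replicate 1 the changes were 2.91 and 1.77. XDH, the xanthine dehydrogenase of purine breakdown, rose by 1.16 and 1.44 from 33 to 34 counts per SC library. STC2 and POLK, named after their values were seen, also rose in both. STC2 rose by 2.70 and 1.12 from 8 to 12 SC counts. Like AHRR, it passed the filter on low counts only through the groups where it was high, though it is among the genes counted above and was also called with no filter. Its SH3 call was lost without SC replicate 3 (1.00, adjusted p 0.0580) or SH3 replicate 1 (1.00, 0.0531). POLK rose by 0.54 and 0.63.

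Other reported targets fell in both treatments, and they too are named after their values were seen. NQO1, a quinone reductase that is a textbook target of AHR and of NRF2, fell from 77.9 ± 16.6 CPM (SC) to 47.8 ± 10.6 CPM under SH2 and 42.8 ± 10.6 CPM under SH3, log2 changes of -0.70 (SE 0.20, adjusted p 0.00789) and -0.86 (SE 0.20, adjusted p 0.00270). SLC7A5, an amino acid transporter, changed by -1.09 and -0.73. ALDH1A3, a retinaldehyde dehydrogenase, changed by -1.0 and -2.30. Footprints of NQO1 fell by 0.68 in SH2 (adjusted p 0.0431) and by 1.15 in SH3 (adjusted p 0.00331).

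**Figure D4:**
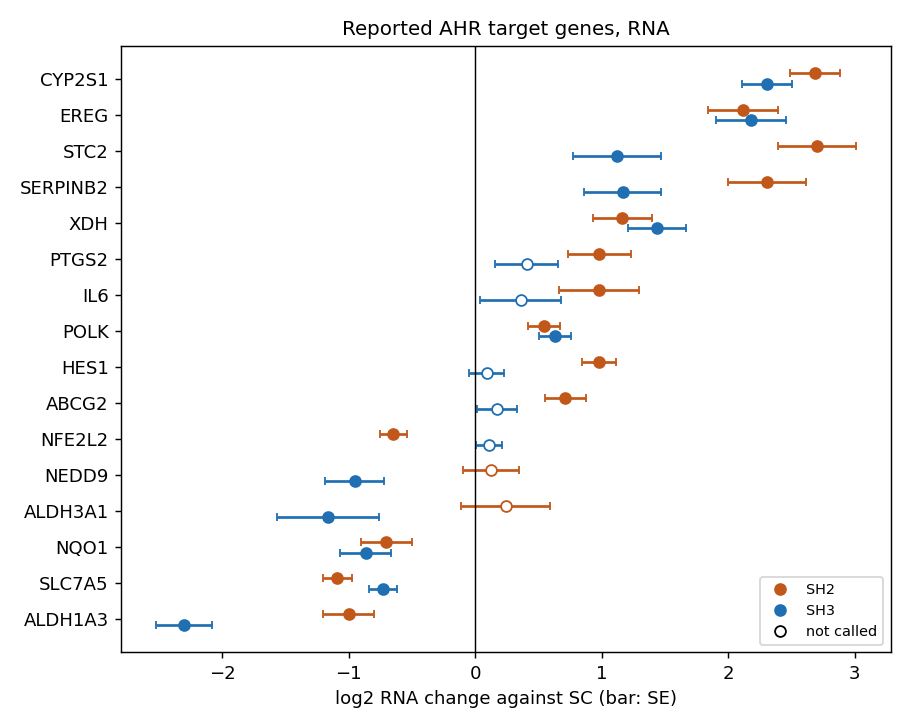
Fitted log2 RNA change against SC (horizontal axis) of 16 genes listed as reported AHR targets, with SH2 and SH3 side by side; points are edgeR estimates from 3 libraries per group, bars are SEs and open points were not called. CYP2S1 and EREG lie above 2 in both treatments, while NQO1, SLC7A5 and ALDH1A3 lie below 0 in both.

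The proteins that hold AHR in the cytoplasm or work with it on DNA were counted next. Of 13 chaperones and coregulators, 5 were higher and 4 lower in SH2 RNA, and 7 were higher and 2 lower in SH3. The SH2 shares (38.5% and 30.8%) were near those of all genes (31.1% and 30.4%), and in SH3 the shares were 53.8% and 15.4% against 27.8% and 25.2%. In footprints, 3 were higher and 3 lower in SH2, and 4 were higher and 1 lower in SH3, against 21% and 23.2% of all genes in SH2 and 16.9% and 19% in SH3. PTGES3, the p23 co-chaperone, changed by -0.78 in SH2 (adjusted p 6.70e-06) and by -0.62 in SH3 (adjusted p 8.49e-05) in RNA. The coactivators NCOA3 (0.83 and 0.93), CREBBP (0.83 and 0.85) and EP300 (0.59 and 0.49) rose in RNA. CREBBP footprints were not called (-0.03 and 0.32), and its efficiency in SH2 was lower by a log2 value of -0.89 (SE 0.24, adjusted p 0.0388).

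Related bHLH-PAS factors, some of which also pair with ARNT, were called about as often as other genes in SH2 RNA, but not in SH2 footprints. Of 13 listed, 10 were tested in RNA, with 3 higher and 3 lower under SH2, and 1 higher and 4 lower under SH3. These are 30% each in SH2 against a background of 31.1% and 30.4%, and 10% and 40% in SH3 against 27.8% and 25.2%. In footprints 7 were tested, with 3 higher and 3 lower under SH2, and 1 higher and 2 lower under SH3. These shares were 42.9% each in SH2 against 21% and 23.2% of all genes, and 14.3% and 28.6% in SH3 against 16.9% and 19%. ARNT2, the close paralog of ARNT, had the deepest fall, from 15.0 ± 1.44 CPM to 3.08 ± 0.320 CPM under SH2 and 6.32 ± 0.314 CPM under SH3, with footprint log2 changes of -2.71 and -1.58. In RNA its log2 change was -2.28 (SE 0.15) in SH2 and -1.25 (SE 0.14) in SH3, and the hairpins differed by -1.03 (SE 0.15, adjusted p 0.000130). The circadian factors ARNTL (1.06 and 1.14), ARNTL2 (-0.70 and -0.60) and CLOCK (-0.97 and -0.46) moved in different directions.

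Enzymes that make or divert kynurenine, an endogenous AHR ligand, were partly too low to test. Of 13 listed, 8 were tested in RNA, with 1 higher and 3 lower under SH2, and 3 higher and 2 lower under SH3. The shares were 12.5% and 37.5% in SH2 against 31.1% and 30.4% of all genes, and 37.5% and 25% in SH3 against 27.8% and 25.2%. IL4I1, the 1 gene higher in SH2, had 3 to 7 counts per SC library. TDO2, among those higher in SH3, had 7 to 12. Both passed the filter on low counts only with the hairpin libraries, where they were high. IDO1, which opens the tryptophan ring, had 17 to 21 counts per SC library and RNA changes of -1.0 and -2.21. It passed the filter through SC, where it was high. Its SH2 call was lost with the DESeq2 Wald test (-1.02, adjusted p 0.103), with no filter (-1.0, adjusted p 0.0517) and without SC replicate 2, SC replicate 3, SH2 replicate 2 or SH2 replicate 3 (adjusted p 0.0502 to 0.0966). AADAT, a kynurenine aminotransferase, changed by -1.09 and -0.50.

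Partners of CYP1B1 in electron transfer and in the handling of its catechol estrogen products were called in RNA at shares not far from the background. Of 12 listed, 10 were tested in RNA, with 4 higher and 2 lower under SH2, and 2 higher and 3 lower under SH3. The shares were 40% and 20% in SH2 against 31.1% and 30.4% of all genes, and 20% and 30% in SH3 against 27.8% and 25.2%. POR, the reductase that passes electrons to microsomal P450 enzymes, rose from 27.7 ± 3.33 CPM to 50.7 ± 0.668 CPM under SH2 and 46.4 ± 2.73 CPM under SH3. The log2 changes of POR were 0.87 (SE 0.10) and 0.75 (SE 0.10) in RNA and 1.06 and 1.11 in footprints. CYB5A, the electron carrier cytochrome b5, rose by 0.54 and 0.77 in RNA. The glutathione transferases GSTP1 (-1.08 and -1.19) and GSTM1 (-0.72 and -0.95), which conjugate quinones, fell in RNA.

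Most other cytochrome P450 genes were too low to test. Of 39 outside the members, 15 were tested in RNA, with 3 higher and 6 lower under SH2, and 3 higher and 5 lower under SH3, and the 24 untested genes had at most 18 counts in any RNA library. The tested shares were 20% and 40% in SH2 against 31.1% and 30.4% of all genes, and 20% and 33.3% in SH3 against 27.8% and 25.2%. Besides CYP2S1, CYP27C1, a retinoid desaturase, rose by 1.68 and 1.92 from 12 to 16 SC counts, and CYP4V2, a fatty acid hydroxylase, by 1.13 and 0.92. CYP24A1, which breaks down vitamin D, changed by -2.06 in SH2, or -2.90 without SH2 replicate 1, and by -2.87 in SH3. For translational efficiency 15 of the list were tested, with 2 higher (13.3%) and 0 lower in SH2 and 0 called in SH3. Of all genes, 3.9% were called in SH2 and 0.686% in SH3, in either direction.

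The RNA profile of CYP1B1 was then set beside those of all other genes tested. Likeness was the Euclidean distance between log2 CPM profiles over the 9 RNA libraries, each centred on its SC mean. Here log2 CPM was taken with edgeR's prior count of 2, which shrinks the changes of genes with few counts. Distances and ranks of such genes, AHRR among them, therefore depend in part on that prior. CYP1B1 was chosen by its rise in these same libraries, so the ranks describe likeness to that rise and test nothing. The 5 nearest genes were EGR2 (distance 1.11), a zinc-finger transcription factor, ADGRF4 (1.22), an adhesion receptor, N4BP3 (1.25), RNF224 (1.36) and CYP2S1 (1.54). N4BP3 and RNF224 had 2 to 3 counts per SC library, so their profiles rest on very few reads, and EGR2 had 12 to 20. The fitted log2 changes in SH2 and SH3 were 3.49 and 3.86 for N4BP3 and 3.30 and 3.54 for RNF224. Those of CYP1B1 were lower, at 2.85 and 2.68. N4BP3 and RNF224, like AHRR, passed the filter on low counts only through the hairpin groups. ADGRF4 averaged 1.03 CPM (SC), 6.61 CPM (SH2) and 5.76 CPM (SH3). Of the members, AHRR was nearest at rank 45 of 12709 (distance 2.50), followed by CYP1A1 at rank 224 (3.69) and AHR at rank 908 (4.98). TIPARP (rank 4177) and ARNT (rank 6981) lay at distances of 6.52 and 7.30, near the median of 7.12 over all genes.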

How the data were processed

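Input cytoplasmic RNA and ribosome footprints of MDA-MB-231 cells under SC, SH2 and SH3 were used, with 3 libraries of each kind and treatment. Per the labels' protocols, part of each lysate was kept as input and the rest digested with RNase I before monosomes were isolated. The authors deposited raw, whole-number counts per gene symbol and library. The deposited normalized signal columns were, by their values, the count divided by 1 size factor per library. The log2 changes and p-values in the authors' deposited table are DESeq2 comparisons, per the file headers. The authors' columns for the measure RD were identical for SH2 and SH3 in all 17017 entries and were not used. Bowtie 1.2.2 and DESeq2 are named in the submitters' processing notes. The build, annotation, counting tool, strand setting and treatment of multiply matching reads are not given in the sources used here, so genes are named by symbol.

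Counts were analysed in edgeR 4.0.16 (R 4.3.3) with filterByExpr (minimum count 10, minimum total 15), TMM scaling and two-sided quasi-likelihood tests. RNA and footprints were fitted separately, over 9 libraries each. Efficiency was an interaction contrast over 18 libraries, without a block by lysate. P-values were Benjamini-Hochberg adjusted over all genes tested and called under 0.05, and SE is the absolute log2 change over the square root of F. The coefficient of variation was 11.6% in RNA and 15.1% in footprints, and intervals are at 95%. Tests were checked on simulated counts with independent libraries and far fewer changed genes than here. That check does not cover the many changes or the shared deviations of these data. Same-numbered SC and SH2 libraries deviated together across genes (r 0.29 to 0.35 in RNA and 0.24 to 0.29 in footprints), a pairing read from the data and not from the labels. The members' 22 log2 values from these fits differed from those in the authors' deposited table by at most 0.0428.

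The members and lists were chosen with earlier results of these data known. Named from each list were genes called in RNA in both treatments in one direction, at most 4 by the smaller absolute change. The genes named as most like CYP1B1 were the 5 with the least profile distance. Alternatives were DESeq2 1.42.0 size factors, its Wald test, no filter, a replicate block, fits of only the groups compared and leaving out each replicate.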

Additional observations from a re-analysis of the deposited data

Results flagged for a closer look

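Several genes changed to a different extent under the 2 hairpins in a direct test of SH2 against SH3 in edgeR, where 39.3% of all genes tested in RNA and 23.8% in footprints differed. Among the members, ARNT RNA was lower in SH2 than in SH3 (log2 difference -0.52, edgeR adjusted p 0.00131). TIPARP was higher in SH2 than in SH3, by 0.48 in RNA (edgeR adjusted p 0.0245) and by 0.64 in footprints (edgeR adjusted p 0.0133).

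Of the named listed genes, those higher in SH2 than in SH3 RNA were SERPINB2 (1.14, edgeR adjusted p 0.00721), STC2 (1.58, edgeR adjusted p 0.000476) and ALDH1A3 (1.30, edgeR adjusted p 0.000475). Those lower in SH2 were ARNT2 (-1.03, edgeR adjusted p 0.000130), CLOCK (-0.52, edgeR adjusted p 0.00408), AADAT (-0.60, edgeR adjusted p 0.00230) and SLC7A5 (-0.36, edgeR adjusted p 0.0207). STC2, ALDH1A3 and SLC7A5 were named after their values were seen.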

How the results depend on the processing

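Over 86 tested changes and 14 kinds of alternative, 914 of 945 values kept their direction and their side of the threshold, 16 lost a call, 1 gained one and 14 changed sign. Of 66 CYP1B1 values, which have no test, 3 changed sign. Counts of called target genes stayed within 1.5 times the reported count. CYP1A1 in RNA and footprints, AHR in RNA and AHRR in RNA held their calls in each alternative run. With single replicates left out, log2 efficiency changes ran from -0.63 to 0.73 (SH2) and -0.51 to 0.85 (SH3) for CYP1B1, from 0.045 to 1.30 (SH2) and -0.28 to 0.98 (SH3) for CYP1A1, from -0.16 to 0.12 for ARNT in SH2, and for TIPARP from -0.20 to 0.45 (SH2) and -0.34 to 0.31 (SH3). Footprint changes ran from 0.80 to 1.09 for AHR in SH3, from -0.43 to -0.20 (SH2) and -0.15 to 0.083 (SH3) for ARNT, and from -0.16 to 0.12 for TIPARP in SH3. TIPARP RNA ran from 0.28 to 0.66 (SH2) and from -0.20 to 0.18 (SH3). The causes were not tested.

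With the replicate block, the TIPARP efficiency change in SH3 was -0.0173 against 0.0144 without it, neither called, and no other call or sign changed. Over all treatment pairs, deviations of same-numbered libraries had r from -0.076 to 0.43 in RNA and from -0.11 to 0.30 in footprints, across genes. The numbers met the check for SC with SH2 and are not shown to pair SH3 with SC. RNA and footprint libraries of one treatment and number had r of -0.49, -0.46 and 0.26 in SC, -0.30, -0.31 and 0.50 in SH2 and 0.42, 0.29 and 0.21 in SH3 for numbers 1, 2 and 3. RNA 1 with footprints 2 had 0.57 in SC and 0.56 in SH2, and RNA 2 with footprints 1 had 0.46 and 0.49. Numbers 1 and 2 may be crossed between RNA and footprints in SC and SH2, which was not tested. No pairing was changed. Efficiency values without a replicate, and those with the block, use the numbers as labelled. AHRR had at most 3 footprint counts per library, which allows no estimate.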
